A study of Homo sapiens with 27 samples.

Results

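The aldo-keto reductases described here are 10 genes: AKR7A2, AKR7A3, AKR7L, AKR1A1, AKR1B1, AKR1B10, AKR1C1, AKR1C2, AKR1C3 and AKR1E2. They were chosen by name as rows of a count table of 60619 genes. RNA-Seq was available for 27 libraries in 9 groups of 3, from MM134 (MDA-MB-134VI) and SUM44 (SUM44PE), both established cell lines of invasive lobular breast carcinoma, an estrogen receptor-positive cancer. The 4 variants of MM134 (named LTED-A, -B, -D, -E) and the 2 of SUM44 (LTED-A, -B) had been grown without estrogen for the long term (LTED, long-term estrogen-deprived) and were derived independently of each other. Each was compared with its parental cells, MM134 parental or SUM44F parental, and the ninth group was SUM44PE, the culture from which SUM44F had been made by a change of medium and serum. All parental groups had been deprived of hormone for 3 days in charcoal-stripped serum before collection, so all groups were without added estrogen, and LTED and parental cells differ in the length of deprivation and in culture history. Replicates were wells of 1 culture, so p-values here measure the spread between wells and do not speak for other derivations of the lines. SUM44 LTED-A replicates 2 and 3 differed by less than sampling noise and were counted as 1 sample, which leaves n = 2 for that group and n = 3 for the others.

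Aldo-keto reductases are soluble enzymes that use NADPH to reduce aldehydes and ketones to alcohols. The AKR7 enzymes clear dialdehydes and succinic semialdehyde, AKR1A1 reduces many aldehydes, and the AKR1B enzymes reduce sugars, retinal and lipid aldehydes. The AKR1C enzymes are hydroxysteroid dehydrogenases that convert androgens, progestins and estrogens between active and weak forms, and AKR1C3 also makes prostaglandins. Several of these genes are known targets of NRF2 (NFE2L2), the transcription factor that answers oxidative and electrophilic stress.

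Library totals ran from 28583554 to 134882175 counts, with a median of 44018412. All 8 luminal epithelial markers (ESR1, GATA3, FOXA1, KRT8, KRT18, KRT19, EPCAM and XBP1) were at 81.0 CPM or more in every group mean. CPM is the usual count of a gene relative to the library size, here corrected by TMM factors over all samples, a method that sets the bulk of genes equal between libraries. Of 11 markers of other cell types, 2 to 7 reached 1 CPM in a group, and CD3E, which defines T cells, was at 0.0571 CPM or less in every group mean. The summed level of those 11 markers was 23.6 to 30.7 CPM in MM134 parental libraries and 35.9 to 37.1, 39.0 to 40.8, 119.8 to 132 and 13.5 to 15.2 CPM in LTED-A, -B, -D and -E. It was 124.9 to 139 CPM in SUM44PE, 66.7 to 239.8 in SUM44F, 274 to 339 in SUM44 LTED-A and 336 to 349 in SUM44 LTED-B. The highest of these sums were mostly the single gene ALB. Its group mean was 111 CPM in SUM44PE, 35.5 in SUM44F, 297 in SUM44 LTED-A and 329 in SUM44 LTED-B. In MM134 LTED-D it was 104 CPM, against 0.767 in MM134 parental cells. In the 4 MM134 variants, 3, 2, 4 and 2 of these markers were called higher and 2, 1, 1 and 2 lower, with LYZ higher and COL1A1 lower in all 4, and in the 2 SUM44 variants ALB was higher in both, with 1 and 2 markers lower, PECAM1 in both, and VWF lower in LTED-A as well without SUM44F replicate 1. Of all genes tested, 8.11% to 10.5% were called higher and 7.75% to 10.3% lower in the MM134 variants. In the SUM44 variants 6.39% and 8.69% were higher and 7.28% and 8.57% lower. The part of these markers in the results on the reductases was not tested. In these markers SUM44F replicate 1 stood apart from its group. COL1A1 was at 85.9 CPM against 7.11 and 5.77 in replicates 2 and 3. DCN was at 39.0 CPM against 0.547 and 0.768, and PTPRC at 2.60 CPM against 0.332 and 0.423. The results on the members against SUM44F are therefore given with and without replicate 1. For the gene lists the calls that changed without it are given. Over all genes with at least 20 counts, SUM44F replicate 3 departed more, and its library was the largest of the group. The chi-square per degree of freedom was 14.1 for replicates 1 and 2, 42.8 for 1 and 3, and 39.2 for 2 and 3. Replicate 3 was left out only among the alternatives.

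Of the 10 genes, 9 passed the filter on low counts, which a gene can pass through the groups where it is high. AKR1E2 (ENSG00000165568), a reductase of anhydrofructose at chr10:4786629-4848062 on the plus strand, had 0 to 4 counts in a library and was not tested in any comparison. A gene was called when its fold change was above 1.5 with an adjusted p under 0.001 in edgeR's quasi-likelihood test over all genes, the thresholds that the study used. Against MM134 parental cells, 7 of the 9 genes were called in LTED-A, where 20.3% of all genes tested were called in either direction. In LTED-B 5 of 9 were called (15.9% of all genes), in LTED-D 2 of 9 (17.6%) and in LTED-E 6 of 9 (19.0%). Against SUM44F, 5 of 9 were called in SUM44 LTED-A (13.7% of all genes) and 4 of 9 in SUM44 LTED-B (17.3%). By direction, MM134 LTED-A had 7 higher and 0 lower, where 10.5% of all genes were higher and 9.82% lower. LTED-B had 4 higher and 1 lower (8.11% and 7.75% of all genes), LTED-D 2 and 0 (9.63% and 7.95%), and LTED-E 6 and 0 (8.71% and 10.3%). In MM134 parental cells AKR1C1, AKR1C2, AKR1C3 and AKR1B10 had 15 counts or fewer in a library. These genes had little room to be called lower, so the absence of lower calls among them in MM134 is not a result. AKR1C3 exceeded 5 counts in an MM134 library only in LTED-A and LTED-E. SUM44 LTED-A had 2 higher and 3 lower (6.39% and 7.28% of all genes), and SUM44 LTED-B 2 and 2 (8.69% and 8.57%). The median log2 fold change of the 9 genes was 1.24, 0.69, 0.58 and 1.18 in the 4 MM134 variants and -0.71 and 0.38 in the SUM44 variants, beside -0.01, 0.02, -0.03, 0.02, -0.06 and -0.09 for all genes tested. In bulk RNA, fewer cells that express a gene and less RNA per cell cannot be told apart.

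**Figure D1:**
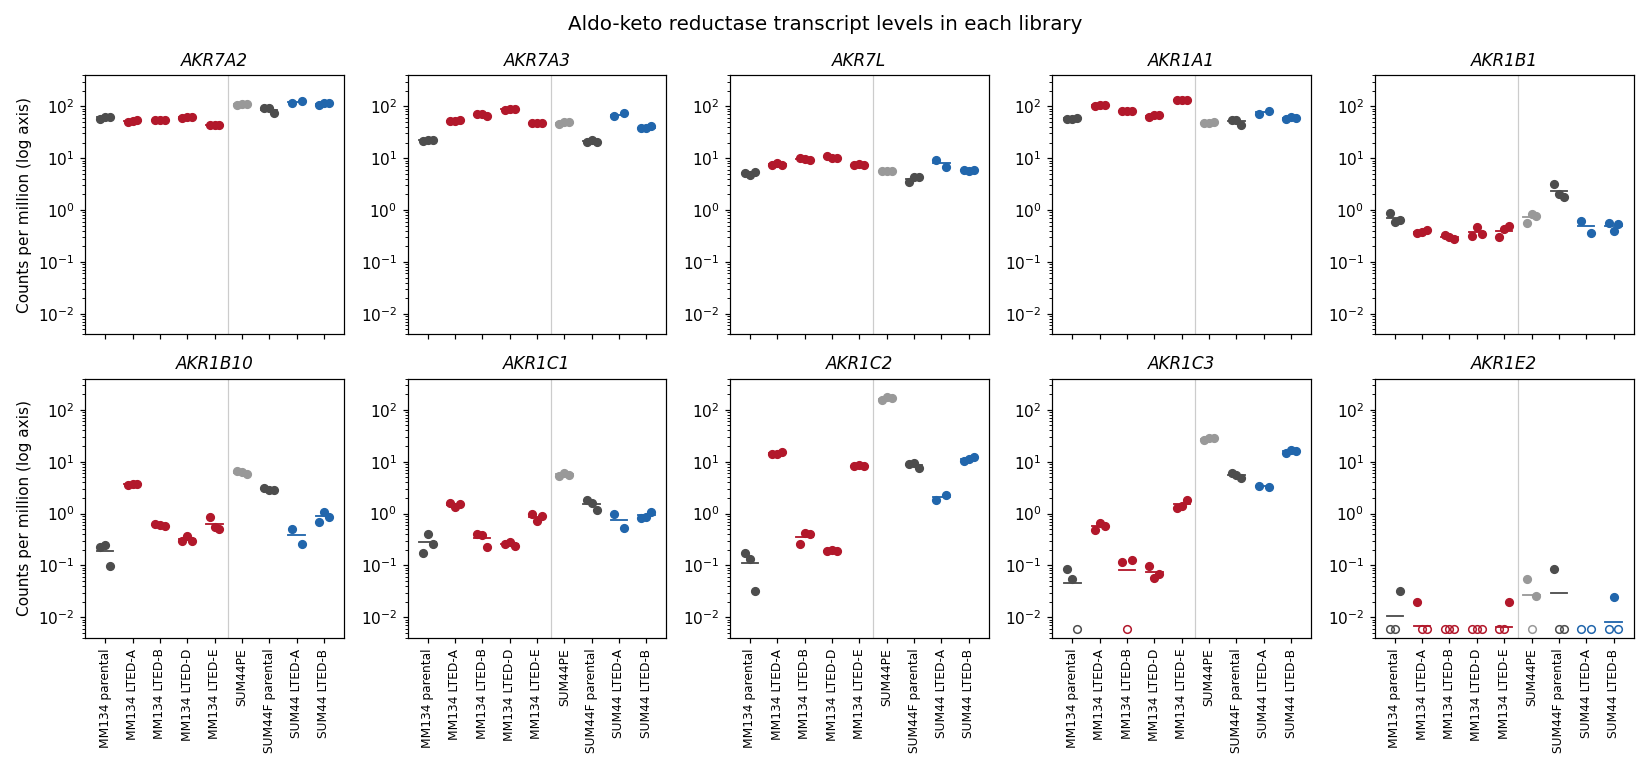
CPM of each gene in each library (points; vertical log axis, groups along the horizontal axis); short lines are group means and open circles at the foot are libraries with 0 counts. AKR1C2, AKR1C3 and AKR1B10 span the widest ranges, and AKR1E2 has 0 to 4 counts throughout. AKR7A3 lies above MM134 parental in every MM134 variant and above SUM44F in both SUM44 variants, while SUM44 LTED-B lies below SUM44PE.

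AKR1C2 had the largest change of the 10 genes in MM134 LTED-A. This hydroxysteroid dehydrogenase inactivates dihydrotestosterone. In MM134 parental cells it was at 0.172, 0.135 and 0.0324 CPM, from 6, 5 and 1 counts. The LTED-A libraries held 14.4, 13.9 and 15.5 CPM and the LTED-E libraries 8.30, 8.49 and 8.20 CPM. LTED-B had 0.255, 0.425 and 0.398 CPM, and LTED-D had 0.194, 0.197 and 0.186 CPM. All libraries of LTED-A and LTED-E thus lay far above parental cells, while those of LTED-B and LTED-D stayed under 1 CPM. None overlapped with parental cells in CPM. For LTED-D this rests on 6, 7 and 8 counts, and its lowest library was at 0.186 CPM against 0.172 in the highest parental one. So small a gap at these counts is not a result. The log2 fold change was 6.93 ± 0.18 (SE, adjusted p = 1.60e-16, edgeR) in LTED-A and 6.14 ± 0.19 (adjusted p = 2.32e-15) in LTED-E. The parental level rests on 12 counts, and over the alternatives computed these values ran from 6.55 to 7.32 and from 5.76 to 6.53. In LTED-B it was 1.60 ± 0.32 (adjusted p = 0.000479), a call lost in 6 of 22 alternatives, among them without MM134 parental replicate 2 or 3 or LTED-B replicate 2 or 3, and in LTED-D 0.72 ± 0.38 (adjusted p = 0.239, not called). LTED-A was above LTED-E by a log2 fold change of 0.79 ± 0.09 (adjusted p = 1.24e-06, edgeR).

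The SUM44 cultures held more AKR1C2 before long-term deprivation. SUM44F had 8.92, 9.41 and 7.49 CPM, and SUM44PE 155, 174 and 167 CPM. SUM44 LTED-A had 1.83 and 2.32 CPM and SUM44 LTED-B had 10.1, 11.3 and 12.2 CPM. Every SUM44 LTED-A library was below every SUM44F library, and every LTED-B library was slightly above. AKR1C2 fell by 2.03 ± 0.16 on the log2 scale in SUM44 LTED-A (adjusted p = 4.39e-06, edgeR), while in SUM44 LTED-B the difference was 0.38 ± 0.13 (adjusted p = 0.0348, not called). Leaving out SUM44F replicate 1 gave -2.00 and 0.41 with the same calls.

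AKR1C3, which reduces androstenedione to testosterone and makes a prostaglandin F, followed AKR1C2 in MM134. The parental libraries held 3, 2 and 0 counts. LTED-A had 48, 36 and 31 counts, or 0.481, 0.669 and 0.577 CPM, and LTED-E had 52, 66 and 93 counts, or 1.28, 1.40 and 1.81 CPM. LTED-B had 5, 0 and 5 counts and LTED-D 3, 2 and 3 counts, and both overlapped with parental cells. With so few parental counts the fitted fold depends on a prior, so ratios of summed counts, each divided by the summed library totals of its group, are given with exact 95% intervals that cover counting error alone. The ratio to parental cells was 10.2 (4.24 to 31.9) in LTED-A and 28.5 (12.0 to 88.5) in LTED-E, both called higher by edgeR (adjusted p = 2.21e-05 and 6.60e-08). In LTED-B it was 1.45 (0.453 to 5.42) and in LTED-D 1.32 (0.380 to 5.12), neither called. Unlike AKR1C2, AKR1C3 was lower in LTED-A than in LTED-E, by -1.42 ± 0.28 (adjusted p = 0.000447, edgeR).

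In SUM44F cells AKR1C3 was at 6.05, 5.61 and 4.88 CPM, and in SUM44PE at 26.0, 28.6 and 28.2 CPM. SUM44 LTED-A had 3.41 and 3.32 CPM and SUM44 LTED-B 14.6, 16.9 and 16.4 CPM. The LTED variants lay on either side of SUM44F with no overlap. The log2 fold change was -0.71 ± 0.13 in LTED-A (adjusted p = 0.00155, just short of a call) and 1.54 ± 0.11 in LTED-B (adjusted p = 1.85e-06, edgeR). Both calls were the same without SUM44F replicate 1 (-0.64 and 1.61). AKR1C3 was called lower in LTED-A than in LTED-B directly, by -2.25 ± 0.14 (adjusted p = 1.30e-06, edgeR), as was AKR1C2, by -2.41 ± 0.16 (adjusted p = 3.07e-06).

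AKR1C1, which inactivates progesterone, rose in the same MM134 variants over a smaller range. MM134 parental libraries had 0.172, 0.405 and 0.259 CPM, LTED-A 1.61, 1.32 and 1.54 CPM, and LTED-E 0.988, 0.720 and 0.914 CPM. Both variants lay wholly above parental cells. AKR1C1 rose by a log2 fold change of 2.4 ± 0.25 in LTED-A (adjusted p = 1.17e-07, edgeR) and 1.63 ± 0.27 in LTED-E (adjusted p = 4.38e-05). LTED-B (0.224 to 0.395 CPM) and LTED-D (0.232 to 0.281 CPM) overlapped with parental cells, with differences of 0.25 ± 0.32 and -0.12 ± 0.34. SUM44F had 1.87, 1.62 and 1.16 CPM, SUM44 LTED-A 0.964 and 0.526 CPM, and SUM44 LTED-B 0.813, 0.865 and 1.08 CPM. Both LTED groups lay below SUM44F without overlap, yet neither difference was called (-1.10 ± 0.31, adjusted p = 0.0184, and -0.72 ± 0.27, adjusted p = 0.0508, edgeR). They were again not called without SUM44F replicate 1 (-0.95 and -0.56). SUM44PE was far above, at 5.32, 6.12 and 5.59 CPM.

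These 3 genes are close copies on 1 stretch of chromosome 10 (hg38, GENCODE v44), with AKR1C1 (ENSG00000187134) at chr10:4963253-4983283 on the plus strand, AKR1C2 (ENSG00000151632) at chr10:4987775-5018031 on the minus strand and AKR1C3 (ENSG00000196139) at chr10:5035354-5107686 on the plus strand. Of the distinct 31-base words in its exons, AKR1C2 shared 45.2% with other aldo-keto reductase genes, AKR1C1 31.5% and AKR1C3 8.14%, so that the split of reads between AKR1C1 and AKR1C2 is an estimate. Their promoters are shown because the 3 genes moved together in MM134: these are the 250 bases before the transcript start in RefSeq on GRCh38.p14, 5′ to 3′ along the gene, with capitals for the letters CCAAT read on the opposite strand (ATTGG).
AKR1C1, chr10:4963165-4963414, plus strand: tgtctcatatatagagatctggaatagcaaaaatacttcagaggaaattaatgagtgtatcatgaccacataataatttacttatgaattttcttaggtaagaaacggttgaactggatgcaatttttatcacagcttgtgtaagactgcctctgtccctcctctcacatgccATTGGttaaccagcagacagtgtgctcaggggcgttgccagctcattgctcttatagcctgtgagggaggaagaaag
AKR1C2, chr10:5003858-5004107, minus strand: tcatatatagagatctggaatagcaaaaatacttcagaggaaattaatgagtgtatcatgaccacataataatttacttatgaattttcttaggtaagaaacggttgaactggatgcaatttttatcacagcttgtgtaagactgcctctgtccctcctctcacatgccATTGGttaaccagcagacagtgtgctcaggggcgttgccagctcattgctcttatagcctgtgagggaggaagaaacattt
AKR1C3, chr10:5094164-5094413, plus strand: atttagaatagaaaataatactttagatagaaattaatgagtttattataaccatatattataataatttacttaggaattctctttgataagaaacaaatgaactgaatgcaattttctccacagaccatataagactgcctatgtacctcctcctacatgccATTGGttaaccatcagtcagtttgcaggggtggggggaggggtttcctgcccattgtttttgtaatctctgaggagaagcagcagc

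The windows of AKR1C1 and AKR1C2 shared a run of 245 identical bases, the second shifted by a few bases against the first, and aligned at 96.5% identity. AKR1C3 aligned to them at 69.5% and 70.2%. A CCAAT match stood at bases 77 to 73, 81 to 77 and 86 to 82 before the start of AKR1C1, AKR1C2 and AKR1C3. Of 35116 promoter windows of this length, 32.0% held such a match on either strand. None of the 3 windows held the letters TGACNNNGC (the core of the antioxidant response element bound by NRF2, in 10.9% of windows), GCGTG (the xenobiotic response element, 32.2%), TATAAA (10.7%) or CACGTG (the E-box, 6.34%), nor the palindromic estrogen response element (0.0399%). A letter match is a description of the sequence and not a bound site, and no match speaks of these windows alone.

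Because a misplaced read stays within the family, the 3 genes were also summed. The summed AKR1C level was 0.438 ± 0.151 CPM (SD, n = 3) in MM134 parental cells, 16.7 ± 0.896 in LTED-A and 10.7 ± 0.192 in LTED-E. It rose by a log2 fold change of 5.21 ± 0.12 in LTED-A (adjusted p = 3.05e-17, edgeR) and 4.59 ± 0.12 in LTED-E (adjusted p = 3.46e-16). In LTED-B (0.772 ± 0.0288 CPM) and LTED-D (0.523 ± 0.0317 CPM) the sum was not called. The sum fell by 1.34 ± 0.12 in SUM44 LTED-A (adjusted p = 1.20e-05, edgeR) and rose by 0.84 ± 0.10 in SUM44 LTED-B (adjusted p = 7.43e-05), with -1.28 and 0.90 and both calls kept without SUM44F replicate 1. The makeup of the sum differed between groups. AKR1C2 took 25.8% of the summed CPM in MM134 parental cells, 87.6% in LTED-A and 77.9% in LTED-E, and 83.2% in SUM44PE. AKR1C2 took 54.9% and AKR1C3 35.2% in SUM44F, and AKR1C3 took 54.4% and 56.9% in SUM44 LTED-A and LTED-B. Shares of CPM are not corrected for the length of the genes. Per length (TPM, defined below), AKR1C2 and AKR1C3 in SUM44F were at 2.54 and 2.53 by exon union. By the canonical transcript they were at 4.81 and 8.35.

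**Figure D2:**
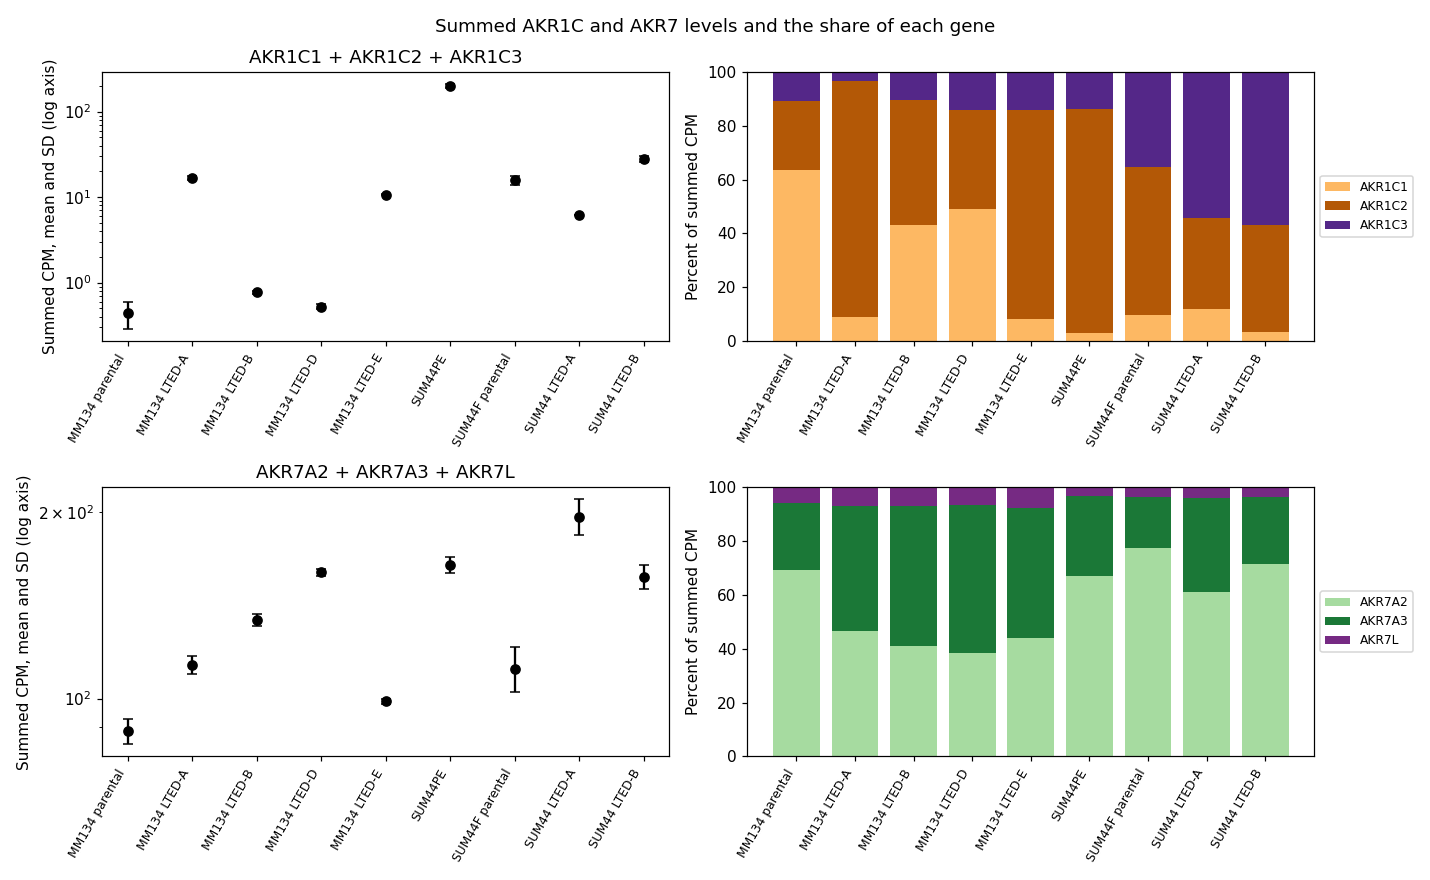
Left, the summed CPM of AKR1C1, AKR1C2 and AKR1C3 (top) and of AKR7A2, AKR7A3 and AKR7L (bottom) in each group, as mean and SD of samples on a log axis; right, the percent of each sum that each gene took, as stacked bars from 0 to 100. The AKR1C sum of MM134 LTED-A (16.7 CPM) and LTED-E (10.7 CPM) stands far above MM134 parental cells and is mostly AKR1C2. The AKR7 sum runs from 88.6 CPM in MM134 parental cells to 197 CPM in SUM44 LTED-A. Its AKR7A3 share is above MM134 parental cells in every MM134 variant and above SUM44F in both SUM44 variants. In SUM44 LTED-B that share is 24.8%, below the 29.6% of SUM44PE.

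AKR7A3, an aflatoxin aldehyde reductase, was the only member called higher in all 6 LTED comparisons. MM134 parental libraries had 21.2, 23.0 and 22.5 CPM. LTED-A had 51.5, 53.0 and 53.9 CPM, LTED-B 71.1, 71.1 and 66.0, LTED-D 85.7, 88.8 and 89.6, and LTED-E 47.8, 48.0 and 47.5. No library of any variant overlapped with parental cells, and the 4 variants did not overlap with each other. The log2 fold changes of LTED-A, -B, -D and -E were 1.24, 1.65, 2.0 and 1.11, each with an SE of 0.04 and with adjusted p from 2.60e-14 to 7.34e-18 (edgeR). Between variants, LTED-D exceeded LTED-E by 0.88 ± 0.04 and LTED-A was below LTED-D by -0.76 ± 0.04, both called, and the other 4 pairs were not. The order was therefore LTED-D, LTED-B, LTED-A, LTED-E and parental, with no call between neighbours except LTED-E over parental.

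SUM44F held the same level of AKR7A3 as MM134 parental cells, at 20.9, 22.2 and 20.6 CPM (log2 difference -0.07 ± 0.05, adjusted p = 0.270, edgeR). SUM44 LTED-A had 64.2 and 73.4 CPM, SUM44 LTED-B 37.6, 38.1 and 41.3 CPM, and SUM44PE 46.5, 49.5 and 49.6 CPM. All 3 groups lay above SUM44F without overlap. AKR7A3 rose by a log2 fold change of 1.70 ± 0.08 in LTED-A (adjusted p = 1.25e-07) and 0.88 ± 0.08 in LTED-B (adjusted p = 6.31e-06, edgeR), and LTED-A exceeded LTED-B by 0.82 ± 0.08 (adjusted p = 4.54e-05). Without SUM44F replicate 1 the values were 1.69 and 0.86 and both calls remained.

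AKR7L, an AKR7-like gene, rose less. MM134 parental libraries held 4.86 to 5.35 CPM, those of LTED-A 7.52 to 8.15, of LTED-B 9.35 to 10.1, of LTED-D 10.2 to 11.1 and of LTED-E 7.41 to 7.67 CPM. All variants lay above parental cells. The log2 fold change was 0.92 ± 0.07 in LTED-B and 1.06 ± 0.07 in LTED-D (adjusted p = 1.42e-09 and 1.74e-10, edgeR). In LTED-A (0.59 ± 0.07, called) and LTED-E (0.56 ± 0.07, not called) it sat on either side of the 1.5-fold threshold, and the LTED-A call was lost in 7 of 23 alternatives, among them without MM134 parental replicate 2, LTED-A replicate 2, any LTED-B replicate or LTED-E replicate 3. In SUM44 LTED-A (9.14 and 6.92 CPM against 3.54, 4.32 and 4.29 in SUM44F) it was called at 0.98 ± 0.15 (adjusted p = 0.000507, edgeR), a call lost without SUM44F replicate 1 (0.89, adjusted p = 0.0017) and in 10 of 18 alternatives in all, among them without any SUM44F or LTED-B replicate or LTED-A replicate 1. SUM44 LTED-B was at 0.52 ± 0.14 and not called (0.43 without SUM44F replicate 1). AKR7L shared 20.6% and AKR7A3 43.0% of their 31-base exon words with other members of the family, so that the split of reads between them is an estimate.

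AKR7A2, the succinic semialdehyde reductase next to them, was called in 0 of the 6 LTED comparisons. MM134 parental libraries had 57.3, 63.4 and 63.0 CPM and the variants 43.2 to 62.0 CPM. The largest difference was in LTED-E, at -0.48 ± 0.04 (adjusted p = 5.86e-09, edgeR), under the 1.5-fold threshold. In SUM44 it leaned the other way, from 91.6, 91.4 and 76.0 CPM in SUM44F to 114 and 125 in LTED-A and 106, 114 and 117 in LTED-B. Those groups did not overlap, but 0.47 ± 0.09 and 0.38 ± 0.09 were not called (adjusted p = 0.00267 and 0.00427), nor were 0.52 and 0.42 without SUM44F replicate 1. The AKR7A3 share of the summed AKR7 CPM went from 25.1% in MM134 parental cells to 46.6%, 51.8%, 55.1% and 48.3% in LTED-A, -B, -D and -E, and from 19.0% in SUM44F to 35.0% and 24.8% in the SUM44 variants. The sum itself was called higher in MM134 LTED-B (log2 fold change 0.60 ± 0.03), MM134 LTED-D (0.86 ± 0.03) and SUM44 LTED-A (0.82 ± 0.09), and not in MM134 LTED-A (0.35 ± 0.03), MM134 LTED-E (0.17 ± 0.03) or SUM44 LTED-B (0.50 ± 0.08). In the SUM44 variants the calls of the sum were the same without SUM44F replicate 1 (0.85 and 0.52).

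The AKR7 genes lie side by side on the minus strand of chromosome 1 (hg38), with AKR7L (ENSG00000211454) at chr1:19265982-19274194, AKR7A3 (ENSG00000162482) at chr1:19282573-19288770 and AKR7A2 (ENSG00000053371) at chr1:19303965-19312144. The promoters of AKR7A2 and AKR7A3 are shown because these neighbours behaved differently. The windows are those defined above, on GRCh38.p14, and capitals mark TGACNNNGC or its reverse complement.
AKR7A2, chr1:19312145-19312394, minus strand: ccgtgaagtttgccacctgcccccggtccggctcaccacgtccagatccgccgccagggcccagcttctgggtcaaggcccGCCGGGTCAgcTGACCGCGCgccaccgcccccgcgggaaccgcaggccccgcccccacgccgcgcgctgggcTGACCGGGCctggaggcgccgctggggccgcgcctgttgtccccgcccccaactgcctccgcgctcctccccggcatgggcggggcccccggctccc
AKR7A3, chr1:19288771-19289020, minus strand: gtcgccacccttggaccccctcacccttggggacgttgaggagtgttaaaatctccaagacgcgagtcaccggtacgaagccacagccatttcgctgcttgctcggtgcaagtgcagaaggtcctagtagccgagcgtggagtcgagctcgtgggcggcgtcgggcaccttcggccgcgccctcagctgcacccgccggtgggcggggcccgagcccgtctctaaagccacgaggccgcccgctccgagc

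AKR7A2 held 3 matches to TGACNNNGC, at bases 169 to 161 (opposite strand), 158 to 150 and 97 to 89 before its start, which do not overlap. AKR7A3 held none. Of all promoter windows, 10.9% held a match to TGACNNNGC. A letter match is not a bound site, and no match speaks of these windows alone. Any bearing of these letters on the level of either gene was not tested. The windows aligned at 50.4% identity. Each also held 1 match to GCGTG on either strand.

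AKR1A1 (ENSG00000117448), a general aldehyde reductase at chr1:45550543-45570049 on the plus strand, was among the most abundant members. MM134 parental libraries had 58.3, 58.0 and 60.9 CPM, LTED-A 104, 105 and 109, LTED-B 81.6, 82.1 and 82.5, LTED-D 61.2, 67.9 and 68.6, and LTED-E 135, 134 and 130.2. Each group stood clear of the next. AKR1A1 rose by a log2 fold change of 0.84 ± 0.04 in LTED-A (adjusted p = 5.38e-13, edgeR) and 1.18 ± 0.04 in LTED-E (adjusted p = 3.66e-15). LTED-B at 0.48 ± 0.04 and LTED-D at 0.17 ± 0.04 had adjusted p of 3.31e-09 and 0.000812 and were under the 1.5-fold threshold. The variants with more AKR1C, LTED-A and LTED-E, were also those with more AKR1A1. SUM44 LTED-A, at 72.7 and 82.6 CPM against 55.7, 55.5 and 44.5 in SUM44F, was just short of a call (0.59 ± 0.10, adjusted p = 0.00105), and SUM44 LTED-B at 58.2 to 61.2 CPM was not called (0.20 ± 0.09). Neither was called without SUM44F replicate 1 (0.64 and 0.25).

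AKR1B10 (ENSG00000198074), a reductase of retinal and lipid aldehydes at chr7:134527567-134541412 on the plus strand, moved in opposite directions in the 2 cell lines. MM134 parental libraries had 0.229, 0.243 and 0.0972 CPM, from 8, 9 and 3 counts, and LTED-A 3.61, 3.75 and 3.74 CPM. LTED-B had 0.627, 0.590 and 0.572 CPM, LTED-D 0.291, 0.365 and 0.302, and LTED-E 0.865, 0.551 and 0.505. All variants lay above parental cells, LTED-A by far the most. AKR1B10 rose by a log2 fold change of 4.23 ± 0.22 in LTED-A (adjusted p = 6.67e-12), 1.61 ± 0.29 in LTED-B (adjusted p = 0.000109) and 1.70 ± 0.28 in LTED-E (adjusted p = 4.52e-05, edgeR), and LTED-D (0.72 ± 0.33, adjusted p = 0.116) was not called. LTED-A exceeded each of the other 3 variants, by 2.53 to 3.50 on the log2 scale, and no other pair was called. SUM44F had 3.17, 2.87 and 2.87 CPM, LTED-A 0.494 and 0.263, and LTED-B 0.693, 1.09 and 0.863. Both variants lay below SUM44F, and AKR1B10 fell by 3.06 ± 0.30 in LTED-A (adjusted p = 1.80e-05) and 1.75 ± 0.23 in LTED-B (adjusted p = 0.000142, edgeR). Without SUM44F replicate 1 it fell by 3.03 and 1.70 and both calls remained, but the LTED-B call was lost without LTED-B replicate 1 or 3. AKR1B10 shared 18.5% of its 31-base exon words with AKR1B15, which itself was at 4.42 CPM in MM134 LTED-A and 4.47 CPM in parental cells and was called in none of the 6 comparisons.

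AKR1B1 (ENSG00000085662), the aldose reductase that turns glucose into sorbitol, lies nearby at chr7:134442356-134459284 on the minus strand. It had a negative log2 fold change in all 6 LTED comparisons, of which 3 were called. The calls in SUM44 were against SUM44F. SUM44PE held 0.725 CPM, and against it AKR1B1 was called in neither SUM44 variant. MM134 parental libraries had 0.886, 0.594 and 0.648 CPM, from 31, 22 and 20 counts, and all variant libraries lay below, at 0.274 to 0.486 CPM. AKR1B1 fell by 1.22 ± 0.26 in LTED-B (adjusted p = 0.000594, edgeR), a call lost in 9 of 23 alternatives, among them without MM134 parental replicate 1 or 3 or any LTED-B replicate. In LTED-A, LTED-D and LTED-E the values were -0.91 ± 0.23, -0.87 ± 0.25 and -0.79 ± 0.24 and were not called. SUM44F had 3.23, 2.07 and 1.76 CPM, SUM44 LTED-A 0.618 and 0.360, and SUM44 LTED-B 0.572, 0.396 and 0.535. Both variants lay below SUM44F, and AKR1B1 fell by 2.32 ± 0.35 (adjusted p = 0.000398) and 2.22 ± 0.30 (adjusted p = 0.000156, edgeR). The highest AKR1B1 level was in SUM44F replicate 1, the library with high COL1A1 and DCN. Without that library AKR1B1 fell by 2.04 and 1.92 and both calls remained. The call in SUM44 LTED-A was lost in 5 of 18 alternatives, namely without either LTED-A sample or LTED-B replicate 1 or 3 (adjusted p up to 0.0090, edgeR) and with only the groups compared. The call in SUM44 LTED-B was lost in 3 of 18, without any of its own 3 libraries (adjusted p up to 0.0013, edgeR).

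**Figure D3:**
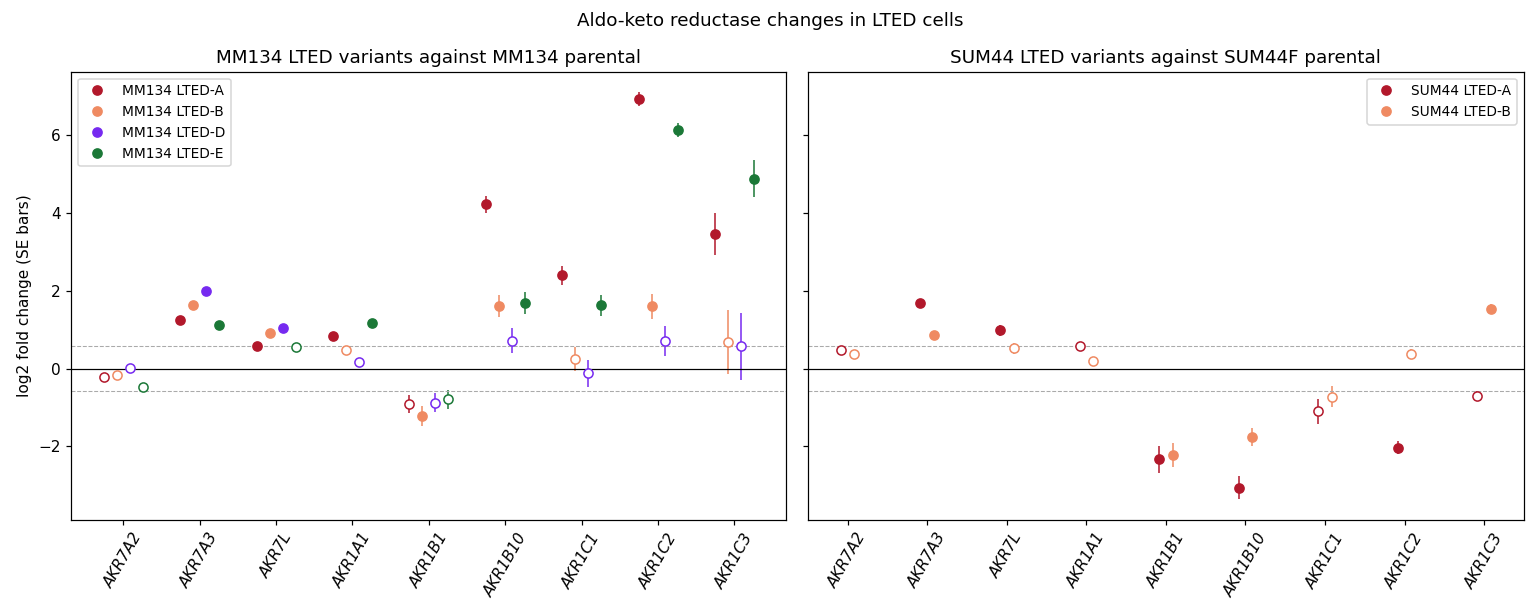
log2 fold change of 9 genes in each LTED variant against its parental cells (points, vertical axis) with bars of 1 standard error; filled points were called, open points were not, and dashed lines mark a 1.5-fold change. AKR1E2 is left out because it was not tested, and the AKR1C3 points of MM134 are fitted values on 3, 2 and 0 parental counts. The AKR1C and AKR1B10 points of MM134 LTED-A and LTED-E rise to between 1.63 and 6.93, while AKR1B10 and AKR1B1 lie at -1.75 or below in both SUM44 variants.

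Levels of different genes were compared per length, as TPM, the counts per base of a gene's exon union scaled to a fixed total in each library. In MM134 parental cells AKR7A2 led at 67.0 ± 1.73 TPM (SD, n = 3), ahead of AKR1A1 at 36.9 ± 1.31 and AKR7A3 at 35.6 ± 1.10. These 3 genes exceeded the AKR1B and AKR1C genes in every group, except in SUM44PE, where AKR1C2 at 37.8 ± 3.45 TPM passed AKR1A1 at 21.8 ± 1.74. By the canonical transcript AKR1C2 in SUM44PE, at 71.5 TPM, passed AKR7A3 (55.6 TPM) as well as AKR1A1 (48.3 TPM). In the 4 MM134 variants AKR7A3, at 65.4 to 106 TPM, stood above AKR7A2, at 40.7 to 50.5 TPM. In both SUM44 variants and SUM44F, AKR7A2 stayed ahead. Within the AKR1C genes AKR1C2 led in MM134 LTED-A (3.63 ± 0.0819 TPM against 0.258 for AKR1C1 and 0.223 for AKR1C3), whereas in SUM44 LTED-B AKR1C3 led at 6.51 ± 0.466 over AKR1C2 at 2.93 ± 0.145. With the length of the canonical transcript in place of the exon union, AKR1A1 (114 TPM) passed AKR7A3 (65.8 TPM) in MM134 LTED-A, where the exon union gave 51.4 and 65.8 TPM, so the order of these abundant genes depends on the length chosen.

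**Figure D4:**
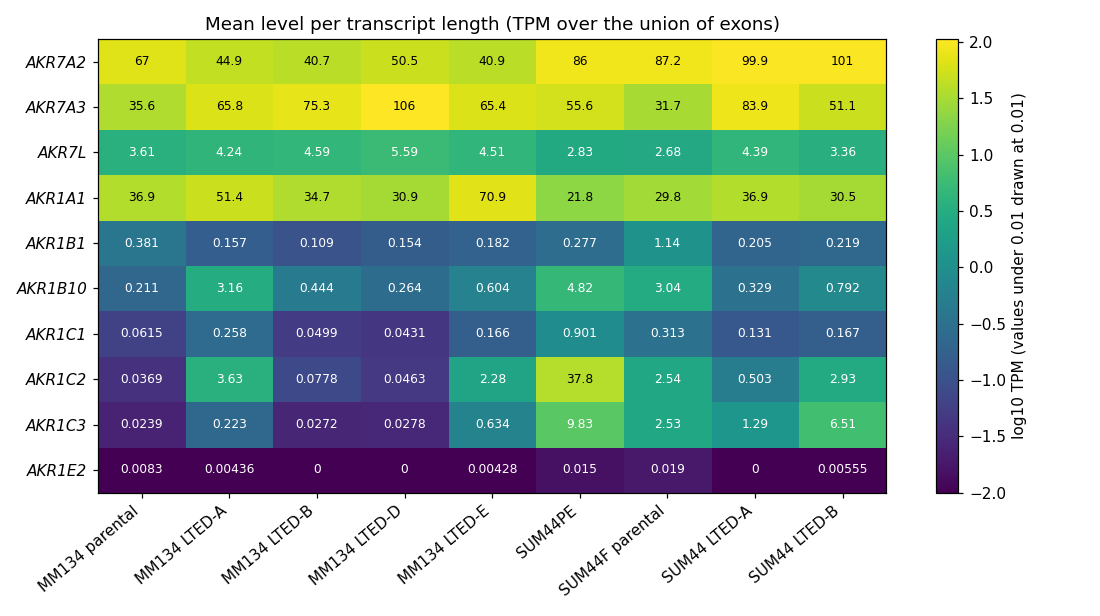
Mean TPM of each gene (rows) in each group (columns), printed in the cells and shown as color on a log10 scale. AKR7A2, AKR7A3 and AKR1A1 form the abundant rows, and AKR1C2 ranges from 0.0369 TPM in MM134 parental cells to 37.8 TPM in SUM44PE.

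Between MM134 variants, 22 of 54 tests of a member in a pair of variants gave a call. The share of all genes called in a pair was 7.06% for LTED-A and LTED-B, 9.88% for LTED-A and LTED-D, 7.84% for LTED-A and LTED-E, 7.40% for LTED-B and LTED-D, 9.78% for LTED-B and LTED-E, and 11.6% for LTED-D and LTED-E. AKR1C2 and AKR1C3 were called in 5 of 6 pairs each, AKR1C1 in 4, AKR1A1 and AKR1B10 in 3, AKR7A3 in 2, and AKR7A2, AKR7L and AKR1B1 in 0. LTED-B and LTED-D, the variants with little AKR1C, were not called different for any of the 9 genes. Between SUM44 LTED-A and LTED-B 3 of 9 were called (7.42% of all genes): AKR7A3 was higher in LTED-A, and AKR1C2 and AKR1C3 were higher in LTED-B.

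To compare the cell lines, the LTED changes, each against its own parental cells, were averaged within a line and the SUM44 mean (2 variants) was subtracted from the MM134 mean (4 variants). Of the 9 genes, 5 were called, beside 21.0% of all genes, with 4 higher in MM134 and 1 lower (10.9% and 10.1% of all genes). AKR1C2 changed by 4.64 ± 0.28 more on the log2 scale in MM134 (adjusted p = 8.06e-13, edgeR), with mean changes of 3.85 in MM134 and -0.82 in SUM44. AKR1B10 differed by 4.49 ± 0.29 (adjusted p = 3.16e-12), with means of 2.07 and -2.41. AKR1C1 differed by 1.95 ± 0.33 (adjusted p = 2.55e-05), with means of 1.04 and -0.91. AKR7A2 differed by -0.64 ± 0.07 (adjusted p = 3.68e-08), with means of -0.21 and 0.43, a call lost without SUM44F replicate 3 (-0.58). Without SUM44F replicate 1 the differences of AKR1C2, AKR1B10, AKR1C1 and AKR7A2 were 4.61, 4.44, 1.79 and -0.69 and all 4 calls remained. The difference of AKR1B1, 1.32 ± 0.31 (adjusted p = 0.000916), was lost without SUM44F replicate 1 (1.03, adjusted p = 0.0042) and in 23 of its alternatives in all. For AKR7A3 the difference was 0.20 ± 0.06 (adjusted p = 0.00953, not called), with means of 1.5 and 1.29. For AKR1C3 it was 1.99 ± 0.55 (adjusted p = 0.0041, not called).

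The parental cultures of the lines differed as well. SUM44F exceeded MM134 parental cells in 5 of 9 genes and fell short in 0, where 38.1% of all genes were called, 19.0% higher and 19.1% lower. AKR1C2 was higher in SUM44F by 6.17 ± 0.20 on the log2 scale (adjusted p = 1.32e-18), AKR1B10 by 3.92 ± 0.25 (adjusted p = 6.00e-13), AKR1C1 by 2.43 ± 0.28 (adjusted p = 3.41e-08) and AKR1B1 by 1.71 ± 0.24 (adjusted p = 1.13e-06, edgeR). AKR1C3 was called as well, with a ratio of summed counts of 111.5 (95% interval 47.6 to 344). All 5 calls remained without SUM44F replicate 1, with 6.14, 3.87, 2.27 and 1.42 for AKR1C2, AKR1B10, AKR1C1 and AKR1B1. Cell line and culture history cannot be told apart here.

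SUM44PE differed from SUM44F, which was made from it, in 6 of 9 genes, beside 5.57% of all genes. It had 5 higher and 1 lower, beside 2.85% and 2.72% of all genes. AKR1C2 was higher in SUM44PE by 4.26 ± 0.11 on the log2 scale (adjusted p = 1.27e-10), AKR1C3 by 2.32 ± 0.10 (adjusted p = 6.45e-09) and AKR1C1 by 1.88 ± 0.22 (adjusted p = 4.08e-05, edgeR). AKR7A3 was higher by 1.18 ± 0.07 (adjusted p = 1.37e-07). AKR1B10, at 6.51, 6.21 and 5.75 CPM in SUM44PE, was higher by 1.04 ± 0.18 (adjusted p = 0.000818), and AKR1B1 was lower by -1.69 ± 0.28 (adjusted p = 0.000652). Both of these last calls were lost without SUM44F replicate 1 (1.09 and -1.39, adjusted p = 0.0015 each) and in 9 of 20 alternatives each, among them without any SUM44PE replicate. The other 4 remained without SUM44F replicate 1 (4.29, 2.4, 2.04 and 1.18). Against SUM44PE in place of SUM44F, AKR1C1, AKR1C2, AKR1C3 and AKR1B10 were called lower in both SUM44 variants. There 14.3% and 20.2% of all genes were called and 7.27% and 9.72% were lower. AKR1A1 was called higher in LTED-A (77.6 CPM against 48.8 in SUM44PE). AKR7A3 and AKR1B1 were called in neither variant. AKR1B1 was at 0.725 CPM in SUM44PE, 0.489 in LTED-A and 0.501 in LTED-B. AKR7A3 in SUM44 LTED-A was above SUM44PE in every library, by 0.54 ± 0.08 (adjusted p = 9.13e-05, edgeR), under the 1.5-fold threshold, and in SUM44 LTED-B it was at -0.29 ± 0.07 (adjusted p = 0.0040). AKR1C3 in SUM44 LTED-B was thus higher than in SUM44F and lower than in SUM44PE.

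NRF2 and 23 genes of its pathway were read beside the reductases, and 23 of the 24 were tested in each line. In the 4 MM134 variants, in the order A, B, D and E, 14, 9, 7 and 11 were called higher and 1, 2, 0 and 1 lower, with median log2 fold changes of 0.77, 0.47, 0.33 and 0.73. Of all genes tested, 10.5%, 8.11%, 9.63% and 8.71% were higher and 9.82%, 7.75%, 7.95% and 10.3% lower. In SUM44 LTED-A and LTED-B 4 and 7 were higher and 4 and 3 lower, with medians of 0.26 and 0.26. Of all genes tested there, 6.39% and 8.69% were higher and 7.28% and 8.57% lower. All these medians stand beside all-gene medians of -0.09 to 0.02. NQO1, a quinone reductase, rose from 150.3 CPM in MM134 parental cells to 1316, 790.2, 367 and 1405 CPM. UGDH, which makes the donor for glucuronidation, rose from 81.2 CPM to 423 to 717 CPM. ME1, a source of NADPH, had 3 counts in all parental libraries together and rose by ratios of 257 (95% interval 87.9 to 1249), 5.82 (1.77 to 30.2), 27.2 (9.04 to 134) and 666 (228 to 3232), highest in LTED-A and LTED-E. NFE2L2 itself, at 65.5 CPM in MM134 parental and 119.5 CPM in SUM44F cells, was not called in any of the 6 comparisons (-0.32 to 0.53), nor was its inhibitor KEAP1 (-0.22 to 0.23).

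In both SUM44 variants SLC7A11, the cystine carrier, rose from 8.40 CPM to 104 and 95.2 CPM (log2 fold changes 3.62 ± 0.09 and 3.50 ± 0.09) and UGDH rose by 1.01 and 1.27. HMOX1, heme oxygenase, fell from 16.7 CPM to 2.29 and 3.78 CPM, and ABCC2, a conjugate exporter, fell by 0.63 and 1.40 on the log2 scale. The list thus moved mostly upward in MM134 and both ways in SUM44. Without SUM44F replicate 1 the SUM44 counts were 4 and 7 higher and 3 and 3 lower, as NQO1 lost its call in LTED-A (-0.60, adjusted p = 0.0035, edgeR).

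**Figure D5:**
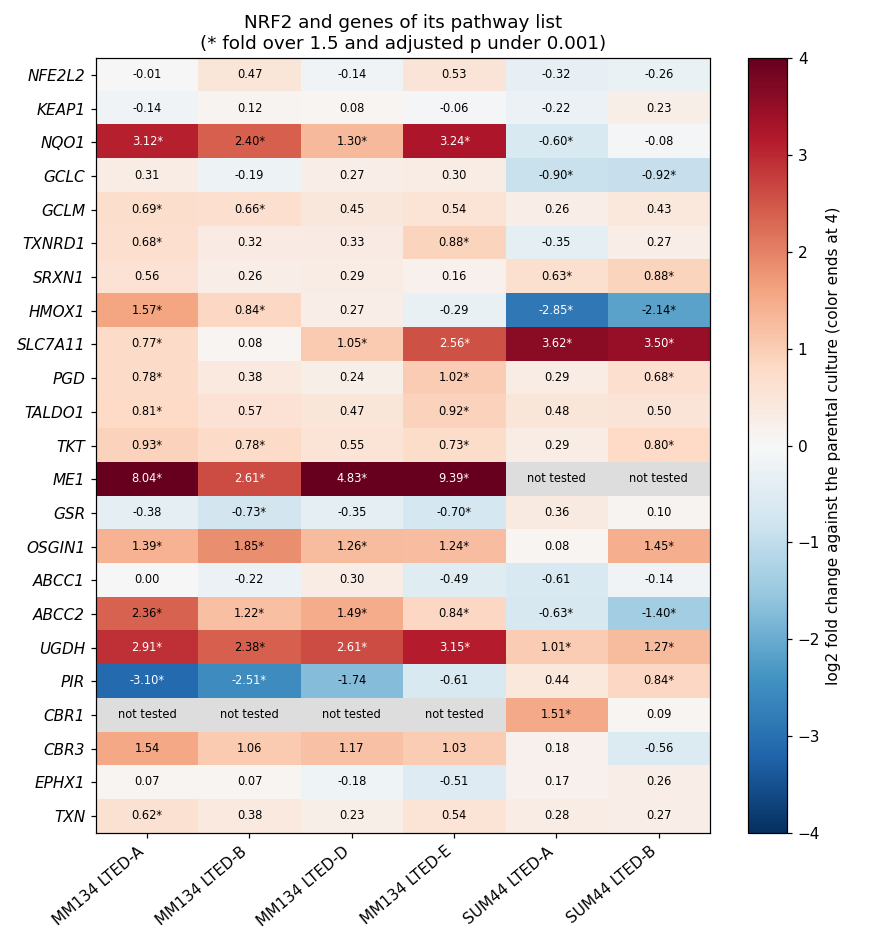
log2 fold change (color, values printed) of NRF2, KEAP1 and 21 other genes of the pathway list (rows) in the 6 LTED variants against their parental cells (columns); an asterisk marks a call and gray a gene that was not tested. NQO1, UGDH, ME1, OSGIN1 and ABCC2 are called higher in all 4 MM134 variants, and NFE2L2 and KEAP1 carry no asterisk.

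Of 17 other enzymes of steroid metabolism, 12 were tested in MM134, and in the same order 4, 4, 3 and 5 were called higher with 0 lower (medians 0.42, 0.35, 0.23 and 0.53). Of all genes tested, 8.11% to 10.5% were higher and 7.75% to 10.3% lower in these variants (medians -0.03 to 0.02). HSD17B2, which oxidizes estradiol to estrone, rose from 4.13 CPM to 88.2, 66.8, 18.6 and 48.7 CPM. SRD5A3, a polyprenol and steroid reductase, rose from 19.4 CPM to 50.9 to 55.9 CPM in all 4. STS, steroid sulfatase, rose in LTED-A, -B and -E (2.98, 1.03 and 0.93, each ± 0.05), with -0.54 ± 0.06 in LTED-D (not called), and HSD17B8 rose in the same 3 variants (0.68 to 0.99). In SUM44, where all 17 were tested, 1 and 2 were higher and 3 and 4 lower (medians -0.09 and -0.25). Of all genes tested there, 6.39% and 8.69% were higher and 7.28% and 8.57% lower (medians -0.06 and -0.09). SULT1E1, the estrogen sulfotransferase, fell from 4.08 CPM to 0.0729 and 0.146 CPM, HSD17B11 from 2.61 to 0.395 and 0.245 CPM, and HSD17B2 from 8.80 to 2.65 and 2.79 CPM. STS rose in both SUM44 variants, by 1.52 ± 0.09 and 0.60 ± 0.08 on the log2 scale. The one call that changed without SUM44F replicate 1 was that of HSD11B2 in LTED-B, which was lost (-1.01, adjusted p = 0.0012, edgeR).

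Among 18 other enzymes of aldehyde and ketone clearance, of which 17 were tested, 5, 3, 4 and 3 were higher and 3, 2, 1 and 4 lower in the MM134 variants (medians 0.14, 0.06, 0.33 and 0.16). In the SUM44 variants 3 and 3 were higher and 1 and 1 lower (medians 0.30 and 0.21). Of all genes tested, 8.11% to 10.5% were higher and 7.75% to 10.3% lower in MM134. In SUM44 6.39% and 8.69% were higher and 7.28% and 8.57% lower, and the all-gene medians were -0.09 to 0.02. DCXR, the dicarbonyl and xylulose reductase, was called higher in all 6, from 44.2 CPM to 78.2 to 92.9 CPM in MM134 and from 40.9 to 71.6 and 89.4 CPM in SUM44. ALDH2, mitochondrial aldehyde dehydrogenase, rose in MM134 LTED-A, -B and -D (1.84, 1.19 and 1.0), and ALDH5A1, the succinic semialdehyde dehydrogenase, fell in all 4 (-2.59 to -1.27). ALDH1A3, a retinal dehydrogenase, had 3 counts in the MM134 parental libraries together and rose by ratios of 6.05 (1.93 to 30.5), 7.03 (2.18 to 36.1), 54.7 (18.4 to 267) and 48.8 (16.5 to 238), with the highest ratios in LTED-D and LTED-E. In both SUM44 variants ALDH3A2, the fatty aldehyde dehydrogenase, fell by 1.38 and 1.44, while ALDH3B2 (1.42 and 1.10) and ALDH1B1 (1.07 and 1.05) rose. No call of this list in the SUM44 variants changed without SUM44F replicate 1.

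Of 12 retinoid genes, 11 were tested, and 3, 2, 3 and 2 were higher and 1, 3, 2 and 3 lower in the MM134 variants (medians 0.07, -0.09, -0.09 and 0.22), with 0 and 1 higher and 1 and 0 lower in SUM44 (medians -0.48 and 0.04). The retinol dehydrogenases DHRS9 and RDH10 rose in all 4 MM134 variants, DHRS9 from 0.184 CPM to 11.2, 3.16, 0.95 and 1.67 CPM and RDH10 from 11.2 CPM to 27.6 to 41.5 CPM. CRABP2, the retinoic acid carrier, fell in LTED-B, LTED-D and LTED-E (-0.77 to -1.48). Of 12 prostaglandin genes 6 were tested in MM134 and 8 in SUM44. In MM134 1 was higher in each variant and 3, 1, 1 and 1 were lower (medians -0.63, -0.18, -0.34 and -0.45), and in SUM44 1 and 3 were higher and 1 and 0 lower (medians 0.06 and -0.03). The gene higher in all 4 MM134 variants was PTGES, a prostaglandin E synthase, from 3.93 CPM to 14.4, 13.5, 44.4 and 7.54 CPM. Of all genes tested, 8.11% to 10.5% were higher and 7.75% to 10.3% lower in MM134. In SUM44 6.39% and 8.69% were higher and 7.28% and 8.57% lower, and the all-gene medians were -0.09 to 0.02. With so few genes tested, the counts are not a result about the retinoid and prostaglandin lists. In SUM44 LTED-A, leaving out SUM44F replicate 1 ended the calls of RDH10 (-0.58) and PTGES (0.64) and added one of DHRS3 (-0.94, adjusted p = 0.000513, edgeR).

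The remaining genes of the superfamily had 0 or 1 call in each of the 6 LTED comparisons, where 13.7% to 20.3% of all genes were called. Of AKR1B15, AKR1C4, AKR1C8, AKR1D1, KCNAB1, KCNAB2 and KCNAB3, 6 were tested in MM134 and 5 in SUM44, with medians from -0.41 to 0.06 and from -0.33 to -0.30. AKR1C8 was called higher in MM134 LTED-A, with 102 counts against 1 and a ratio of 45.1 (7.92 to 1800.2). KCNAB2, a potassium channel subunit, fell by 0.70 in MM134 LTED-B and 0.59 in MM134 LTED-E. AKR1D1, which reduces bile acid precursors and steroids, fell by 2.38 ± 0.18 in SUM44 LTED-B. No other call was made in this list in the 6 comparisons.

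Genes within 500 kb of the members were read for the same comparisons. Around the AKR1C genes, 5 protein-coding neighbours were tested in MM134, of which 3, 2, 3 and 3 were higher and 0 lower. Of all genes tested, 8.11% to 10.5% were higher and 7.75% to 10.3% lower in these variants. TUBAL3, a tubulin-like gene, had 1 count in the MM134 parental libraries and 17.7, 1.15, 2.96 and 5.32 CPM in LTED-A, -B, -D and -E, with ratios of 1622 (291 to 64064), 104.7 (18.5 to 4163), 267 (47.6 to 10579) and 500.3 (89.5 to 19788). It was thus called in LTED-B and LTED-D as well, where the AKR1C sum was not. In SUM44 LTED-A and LTED-B TUBAL3 was lower, by -2.76 ± 0.19 and -1.0 ± 0.15, and the LTED-B call was lost without SUM44F replicate 1 (-0.97, adjusted p = 0.0011, edgeR). NET1, a guanine nucleotide exchange factor, rose in MM134 LTED-B, LTED-D and LTED-E (0.64, 0.87 and 1.27) and in both SUM44 variants (1.02 and 1.16). CALML5, a calmodulin-like gene with 4 counts in the MM134 parental libraries, rose in LTED-A, -D and -E by ratios of 32.5 (12.6 to 120.2), 12.6 (4.67 to 47.6) and 32.9 (12.6 to 121.9), and rose by 1.38 ± 0.20 in SUM44 LTED-B. TUBAL3 and CALML5 had little room to be called lower in MM134, so the absence of lower calls there is not a result.

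Near the AKR7 genes 11 neighbours were tested in MM134, with 1, 0, 0 and 0 higher and 2, 2, 1 and 2 lower, and 12 in SUM44, with 3 and 4 higher and 0 and 1 lower (5 higher in LTED-B without SUM44F replicate 1, by EMC1). Of all genes tested, 8.11% to 10.5% were higher and 7.75% to 10.3% lower in MM134. In SUM44 6.39% and 8.69% were higher and 7.28% and 8.57% lower. With so few neighbours tested, the MM134 counts are not a result about this stretch. IFFO2 fell in all 4 MM134 variants (-1.06 to -1.29), against AKR7A3, and NBL1 fell in LTED-A, -B and -E (-2.27, -0.72 and -1.29) but rose by 2.15 and 3.25 in the SUM44 variants and by 2.02 in SUM44PE. CAPZB and MRTO4 rose in both SUM44 variants (0.75 to 1.05), and ALDH4A1, a proline catabolism enzyme, rose in MM134 LTED-A (0.64) and fell in SUM44 LTED-B (-1.0). Of 16 neighbours of AKR1A1, PRDX1, a peroxiredoxin, was higher in all 4 MM134 variants (0.76, 1.21, 1.25 and 1.5), and PIK3R3 rose in LTED-E (0.69). Of 7 neighbours of the AKR1B genes, CALD1, caldesmon, fell in all 4 MM134 variants, from 4.49 CPM to 0.437 to 0.721 CPM, while SLC35B4 rose in LTED-A, -D and -E (0.60, 0.85 and 0.59). In both SUM44 variants BPGM (-2.49 and -2.05) and LRGUK (-2.17 and -1.55) fell together with AKR1B10 and AKR1B1, and they were also lower in SUM44PE (-1.04 and -1.58). LRGUK lost its calls in SUM44 LTED-B (-1.59) and SUM44PE (-1.61) without SUM44F replicate 1.

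The genes whose pattern was most like each member were found by Pearson's r of log2(CPM + 1) over the 9 group means, among 13886 genes with at least 5 CPM in 1 group. The 9 points share 2 cell lines and their parental cultures, so r is a description. AKR7A3 was most like EDC3 (0.937), AKR7L (0.930) and PMM1 (0.912), and AKR7L was most like RAB5C, AKR7A3 and EAF2 (0.931, 0.930 and 0.928). AKR1C1 and AKR1C2 were each other's nearest (0.960), followed by PCSK5 and CASP4 for AKR1C1 (0.927 and 0.922) and TRIP11 and ALKBH1 for AKR1C2 (0.913 and 0.898). The split of reads between AKR1C1 and AKR1C2, and between AKR7A3 and AKR7L, is an estimate. Its part in the r of these pairs was not tested. AKR1C3 was nearest to ATG16L1, RTRAF and KLHL35 (0.969, 0.968 and 0.963), with 0.811 to AKR1C2. AKR1B10 was nearest to BDKRB2, GBP2 and CCL28 (0.976, 0.955 and 0.953) and at 0.910 to AKR1C1. AKR1A1 was nearest to OLMALINC, ANO7 and ELL3 (0.984, 0.983 and 0.957), and AKR7A2 to DRAIC, CACNB3 and CFAP45 (0.988, 0.983 and 0.980). Between AKR7A2 and its neighbour AKR7A3 r was -0.0994.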

How the data were processed

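RNA-Seq of 27 libraries was analysed. The authors made libraries from total RNA with a stranded kit and deposited estimated counts per gene from Salmon 0.6.0 (hg38, Ensembl release 82), which are not whole numbers. Trimming and the strand setting are not given in the sources used here. Of 60619 genes, 7473 had no count and 56434 were named from GENCODE v44. Rounded counts went through filterByExpr and TMM factors in edgeR 4.0.16 (R 4.3.3). Its two-sided quasi-likelihood test was adjusted by Benjamini-Hochberg over every gene in the fit. There was 1 fit for MM134 (26061 genes), 1 for SUM44F and the SUM44 variants (26834), 1 that added SUM44PE (27457) and 1 of all groups (29608). A call needed a fold above 1.5 and an adjusted p under 0.001. The standard error is the log2 fold change divided by the root of F. Replicates were compared by a chi-square over genes with at least 20 counts: SUM44 LTED-A replicates 2 and 3 gave 0.312 per degree of freedom, against 2.35 to 58.1 in the 26 other pairs, and were merged.

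Scripts were tested on simulated data. The members and the gene lists (other aldo-keto reductases, NRF2 pathway, steroid enzymes, aldehyde and ketone clearance, retinoid and prostaglandin genes, cell type markers) were chosen with earlier results of these data known. Of each list, up to 4 genes called the same way in at least 3 MM134 variants or both SUM44 variants were named, with the largest mean change first, plus NFE2L2 and KEAP1. AKR1C8, KCNAB2 and AKR1D1, and genes whose call changed without SUM44F replicate 1, were named after their values were seen. Neighbours were named where called in the same comparison as the member. TPM was computed from the estimated counts and GENCODE exon lengths. Alternatives were RLE factors, DESeq2 1.42.0, no filter, thinned counts, other thresholds, other samples in the fit, a replicate block, separate replicates for the merged pair and each library left out. The repeat without SUM44F replicate 1 was extended to the lists, neighbours and sums after the data were seen. With library totals in place of TMM, the median log2 fold change of all genes shifted by -0.13 to -0.18 in the LTED comparisons. Intervals of count ratios cover counting error only. A few genes of these lists are counted but not reported by name here.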

Additional observations from a re-analysis of the deposited data

Results flagged for a closer look

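The LTED change of 5 aldo-keto reductases differed between the cell lines by a test of the difference itself (edgeR's quasi-likelihood test on all groups, MM134 mean over 4 variants less the SUM44 mean over 2, log2 scale). AKR1C2 differed by 4.64 ± 0.28 (SE, adjusted p = 8.06e-13) and AKR1B10 by 4.49 ± 0.29 (adjusted p = 3.16e-12, edgeR). AKR1C1 differed by 1.95 ± 0.33 (adjusted p = 2.55e-05, edgeR), and AKR7A2 by -0.64 ± 0.07 (adjusted p = 3.68e-08), a call lost without SUM44F replicate 3 (-0.58). AKR1B1 differed by 1.32 ± 0.31 (adjusted p = 0.000916, edgeR), a call lost without SUM44F replicate 1 (1.03, adjusted p = 0.0042), the library with high COL1A1 and DCN. The lines also differed in the level from which these genes started, and AKR1C2 and AKR1B10 were at 0.113 and 0.190 CPM in MM134 parental cells and at 8.61 and 2.97 CPM in SUM44F. In MM134 LTED-D neither of them was called, so the MM134 mean covers unlike variants.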

How the results depend on the processing

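Of the single-gene results, 1816 kept their direction and call under an alternative, 90 lost a call, 21 gained one and 11 changed sign. AKR7A3 kept its 6 calls except SUM44 LTED-B at a fold above 2.

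The number of members called in MM134 LTED-B, 5 of 9, was 3 with DESeq2, 3 with thinned counts and 2 with only the groups compared, and in SUM44 LTED-A, 5 of 9, it was 8 at an adjusted p under 0.05 and 3 with only the groups compared. The calls of the summed AKR1C and AKR7 counts, 7 of 12, were 3 at a fold above 2. Leaving out 1 library gave 6 to 7, 3 to 5, 2 to 2 and 6 to 7 calls in the MM134 variants (A, B, D, E), 3 to 5 and 2 to 4 in the SUM44 variants, 4 to 6 in SUM44PE, 5 to 6 for SUM44F against MM134 parental cells, 4 to 5 for the difference between lines, 20 to 22 between MM134 pairs, 3 to 3 between SUM44 variants and 6 to 7 for the sums. Without SUM44 LTED-A replicate 1 or the merged sample that group holds 1 sample, which is then assumed to vary like the others. The count of 3 in MM134 LTED-B came without MM134 parental replicate 3 or LTED-B replicate 2 or 3, that of 3 in SUM44 LTED-A without LTED-A replicate 1 or LTED-B replicate 1 or 3, and that of 2 in SUM44 LTED-B without LTED-B replicate 1 or 3.

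Sign changes were all of differences that were not called. Leaving out 1 library moved AKR1C1 in MM134 LTED-B from -0.010 (without MM134 parental replicate 1) to 0.64, AKR1C1 in LTED-D from -0.38 to 0.27 (without MM134 parental replicate 2) and AKR7A2 in LTED-D from -0.031 (without MM134 parental replicate 1) to 0.040. AKR1C1 in LTED-D was 0.12 with thinned counts. The AKR7L difference between lines was -0.018 with RLE factors, -0.0044 with DESeq2, -0.070 with thinned counts, and -0.090 (without the merged sample of SUM44 LTED-A replicates 2 and 3) to 0.11 with 1 library left out, below 0 also without MM134 parental replicate 2 or SUM44F replicate 2 or 3. The cause was not tested.

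The fits with the replicate number as a block also kept SUM44 LTED-A replicates 2 and 3 as separate samples. Where SUM44 LTED-A is in the fit, the effect of the block and that of the separation cannot be told apart. The counts of calls were 7, 4, 2 and 6 in the MM134 variants and 7 and 4 in the SUM44 variants. They were 5 for SUM44PE, 5 for the parental lines and 5 for the difference between lines. Between MM134 pairs there were 21, between SUM44 variants 3, and for the sums 7. Same-numbered samples did not deviate together: the correlation of deviations exceeded 0.1 in 8 of 30 pairs in MM134 and 6 of 18 in SUM44, and 9 of 27 libraries were best matched by their own number.

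Over all genes, a fold above 2 gave 3261, 2574, 2783 and 3120 calls in the MM134 variants, 2325 and 2664 in the SUM44 variants, 770 in SUM44PE and 4092 for the difference between lines. An adjusted p under 0.05 gave 6386 and 7895 in the SUM44 variants and 2871 in SUM44PE, and only the groups compared gave 2190 in SUM44 LTED-A. Low counts limit AKR1B1, AKR1B10, AKR1C1, AKR1C2, AKR1C3 and AKR1E2 in MM134.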
